A study of Homo sapiens with 27 samples.

Results

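The genes described here are the cytosolic translation initiation and elongation factors of U937, a human myeloid leukemia cell line, in untreated cells and in cells exposed to matrine, a plant alkaloid. They were chosen as the protein-coding genes whose symbol begins with EIF and a digit from 1 to 6, or with EEF and 1 or 2, without the 4 eIF2alpha kinases, and with a mean above 1 FPKM over the 9 libraries. FPKM, the fragments of a gene scaled by its length and by the depth of the library, allows levels to be set side by side. Of 71 protein-coding symbols that matched, 4 were the kinases, 2 had no row in the table and 5 lay at or below 1 FPKM. This left 60 members of 57905 genes, of which 11899 had a mean above 1 FPKM. Nearest to the limit were EIF3CL at 1.23 and EIF5A2 at 1.42 FPKM on the inside, and EEF1G at 0.324 FPKM on the outside. The RNA-seq set held 3 groups of 3 libraries: control cells, cells exposed for 30 min and cells exposed for 24 h, matrine being at 0.8 mg/mL at both times. The vehicle was ddH2O, and a single set of control libraries was compared with each time. The culture time of the control is not given in the sources used here, so 24 h of matrine and 24 h in culture cannot be told apart. All libraries came from the same cell line without any genetic change named in the labels.

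A ribosome begins an mRNA when eIF2, loaded with GTP and the initiator tRNA, joins the small ribosomal subunit together with eIF1, eIF1A, eIF3 and eIF5, while eIF4F (the cap-binding eIF4E, the scaffold eIF4G and the helicase eIF4A) brings in the capped mRNA. eIF2B reloads eIF2 with GTP, the 4E-BP proteins hold eIF4E back, and eIF5B brings in the large subunit. In elongation, eEF1A delivers charged tRNAs, eEF2 moves the ribosome along, and eIF5A helps it through slow peptide bonds. Many mRNAs of the translation machinery, those of elongation factors among them, begin with a C followed by a run of pyrimidines (a TOP mRNA), which places their translation under the control of mTORC1.

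Each library held between 17314931 and 21930018 counts, and each member had at least 48 counts in every library. Of 12 myeloid markers, 10 had a mean above 1 FPKM, with ELANE at 885 and LYZ at 292 FPKM in the control, while CSF1R stayed between 0.53 and 0.73 FPKM. MPO had a mean of 0.313 FPKM in the control and 1.84 FPKM after 24 h. The T cell markers CD3D, CD3E and CD3G were at 0 in all 9 libraries, as were MS4A1, DCN and EPCAM, and the B cell gene CD79A stayed below 3 FPKM. Bulk libraries give each mRNA as a share of all mRNA, so less of an mRNA in each cell and fewer cells that carry it cannot be told apart. Nothing in the labels says that the 3 libraries of a group came from separate cultures, so the p-values measure the spread between these libraries.

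The members differed by a wide range of levels. Their mean over the 9 libraries ran from 1.23 FPKM (EIF3CL) to 901 FPKM (EEF2), with a median of 33.5 FPKM. EEF2 and EEF1A1 stood far above the rest, 9 members exceeded 100 FPKM and 18 were below 10 FPKM. The 60 genes lay on 20 chromosomes. Of the members, 33 had a near-identical copy or pseudogene in the annotation or lay in a readthrough gene, and since the authors' handling of reads with several matches is not given in the sources used here, their counts carry that uncertainty.

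RefSeq promoter sequences (GRCh38.p14) were found for 48 of the 60 members. In 12 of the 48 (25%), a run of at least 5 pyrimidines began at the annotated start, read on the strand of the RNA. The share was 5.17% of the 35116 promoters in the same collection and 4.93% of those of protein-coding genes. Starts of members that recur in the results are printed with 10 bases before and 15 bases from the start on, the run in capitals.

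EEF1A1 (chr6:73521018-73521042, minus strand): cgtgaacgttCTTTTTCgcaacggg
EEF2 (chr19:3985449-3985473, minus strand): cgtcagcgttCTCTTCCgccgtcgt
EIF3F (chr11:7987327-7987351, plus strand): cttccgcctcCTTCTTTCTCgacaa
EIF4B (chr12:53006446-53006470, plus strand): tcatccgggtCTTTTgcgttctctt
EIF3D (chr22:36529152-36529176, minus strand): cgcatgtttcCTCTTTTCCTggttt
EIF3K (chr19:38619178-38619202, plus strand): tttccaccacCTCTTCCTgttcccg
EIF2S3 (chrX:24054946-24054970, plus strand): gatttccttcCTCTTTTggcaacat
EIF3M (chr11:32583821-32583845, plus strand): gcccagttccCTTTTCCggtcggcg

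Of the members called lower after 24 h, by the rule given further on, only EIF3M had such a run among those with a promoter sequence. The starts of 5 of the others are given in the same window, without capitals because no pyrimidine stands at the annotated first base.

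EIF2B3 (chr1:44986581-44986605, minus strand): gctgtcagtcagaggcggcgtggag
EIF5B (chr2:99337379-99337403, plus strand): ctgagaactcacaccatatgtgtcc
EIF5A (chr17:7306989-7307013, plus strand): tgggaacccgaccacactagcgcgc
EIF3B (chr7:2354817-2354841, plus strand): tcgcacgcacatggctgggctgtag
EIF4E (chr4:98929119-98929143, minus strand): tggagcggttgtgcgatcagatcga

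The E-box CACGTG, the sequence that c-Myc and its partner MAX bind, reads the same on both strands. It stood in 12 of the 48 member promoters (25%), from 250 bases before to 50 after the start. Of all 35116 promoters 7.26% held the E-box, as did 8.88% of the 15843 promoters of protein-coding genes. It was found in the promoters of both EIF4E and EIF2B3, the members called lower after 24 h that held it, and in EIF4G1 and EIF3F among others, shown here with the E-box in capitals.

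EIF4E (chr4:98929183-98929222, minus strand): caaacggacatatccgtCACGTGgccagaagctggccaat
EIF2B3 (chr1:44986752-44986791, minus strand): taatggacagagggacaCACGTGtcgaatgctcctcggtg
EIF4G1 (chr3:184314522-184314561, plus strand): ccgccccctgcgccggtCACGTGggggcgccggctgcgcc
EIF3F (chr11:7987252-7987291, plus strand): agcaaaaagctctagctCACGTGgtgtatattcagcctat

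The E-box began 72 bases before the annotated start in EIF4E, 179 bases before it in EIF2B3, 67 bases in EIF4G1 and 68 bases in EIF3F. A search of both strands for the ATF4 element TGATGNAA found it in 0 of the 48 windows. It stood in 3.62% of all promoters and in 2.53% of those of protein-coding genes. These matches describe letters in a window and say nothing of binding in U937 cells.

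After 24 h of matrine, many translation factor mRNAs were lower and none was called higher. Of the 60 members, 15 (25%) were called lower, that is, with an adjusted p below 0.05 (edgeR quasi-likelihood test, Benjamini-Hochberg over 12035 genes) and a fold change of at least 1.5, where 11.2% of all genes tested were called lower. No member was called higher, where 15.1% of all genes were. By the adjusted p alone, 43 members were lower (31.8% of all genes), 3 were higher (31.5% of all genes) and 14 did not pass. The median log2 fold change of the members was -0.27, against 0.01 over all genes tested, and the members ran from -1.30 (EIF2B3) to 0.41 (EIF4EBP2). In 39 members the 3 libraries at 24 h lay below all 3 control libraries in FPKM (31% of all genes), in 6 they lay above them (38.7% of all genes), and in 15 the groups overlapped.

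**Figure D1:**
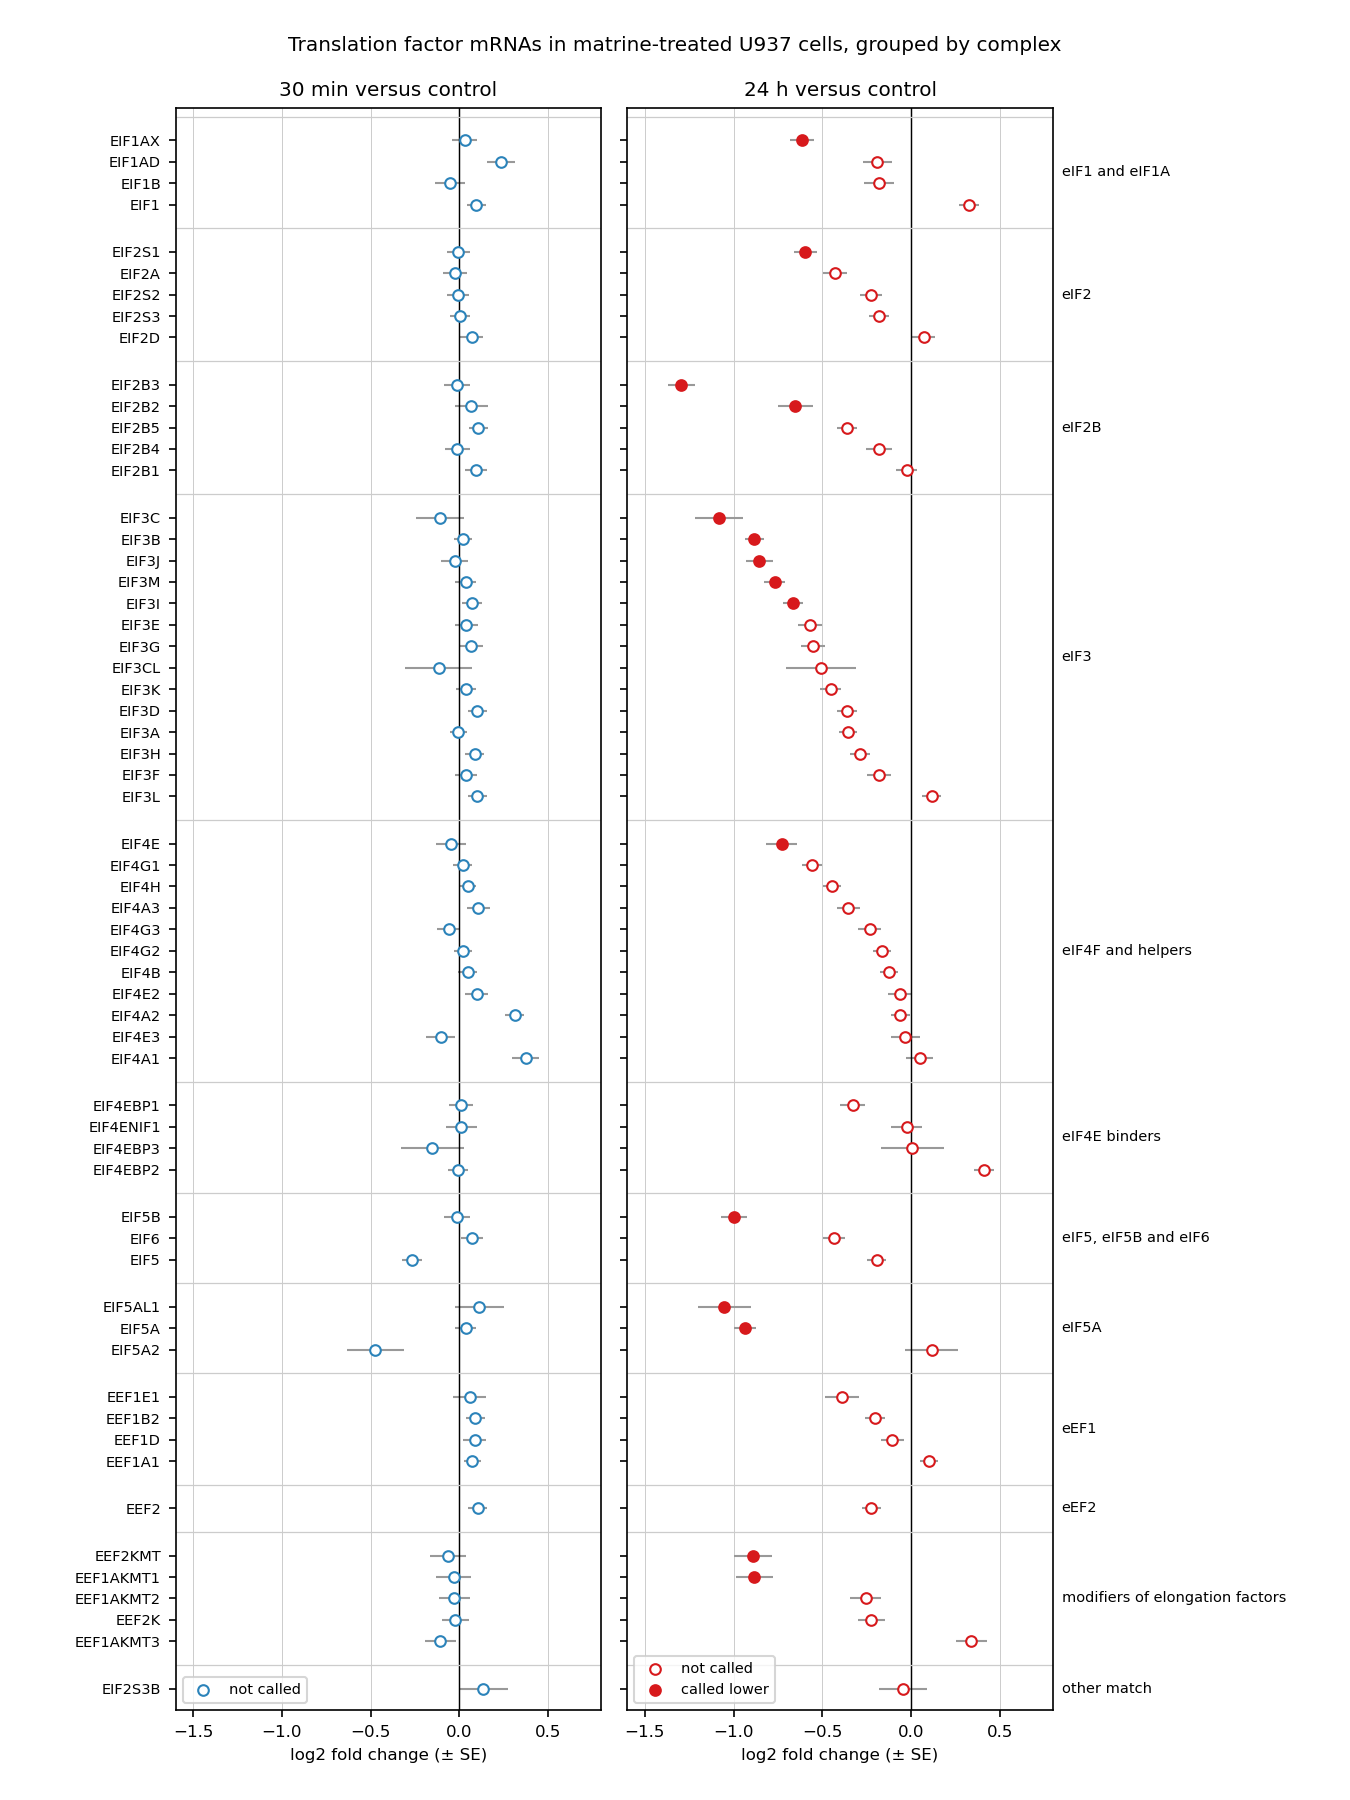
log2 fold change (edgeR, ± SE) of each of the 60 members at 30 min (left) and 24 h (right) against the control, 3 libraries per group, grouped by complex. Filled points were called lower; at 30 min no member was called, and at 24 h the 15 called members reached from -0.60 (EIF2S1) to -1.30 (EIF2B3).

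After 30 min the members were close to the control. None was called lower (0.544% of all 11587 genes tested) and none higher (0.0949%), with a median log2 fold change of 0.03 and a range from -0.47 (EIF5A2) to 0.37 (EIF4A1). By the adjusted p alone, 2 members were higher (0.293% of all genes) and 1 was lower (1.33%), each with a fold change under 1.5. The higher pair were the paralogous mRNA helicases. EIF4A2 (ENSG00000156976, chromosome 3, 186783205 to 186789897) was at 44.9, 45.1 and 44.5 FPKM in the control, 55.7, 56.8 and 52.9 FPKM after 30 min and 45.8, 45.0 and 42.7 FPKM after 24 h, a log2 fold change at 30 min of 0.31 ± 0.05 (SE, adjusted p = 0.00141). EIF4A1 was at 6.86, 6.31 and 7.55 FPKM in the control, 8.84, 8.78 and 8.94 FPKM after 30 min and 6.97, 7.77 and 7.40 FPKM after 24 h. Its change at 30 min was, on the log2 scale, 0.37 ± 0.08 (SE, adjusted p = 0.00931). For both, the 3 libraries at 30 min lay above the other 6 libraries, and at 24 h both overlapped the control. EIF4A1 carries a limit, since 47.4% of its exon bases are overlapped by other genes of the same strand and its counts cannot be fully told apart from theirs. The lower member was EIF5, which makes eIF2 hydrolyse its GTP once the start codon is found, at 41.4, 38.4 and 41.2 FPKM in the control, 33.3, 35.0 and 31.3 FPKM after 30 min and 37.6, 36.1 and 35.7 FPKM after 24 h. Its log2 fold change at 30 min was -0.27 ± 0.05 (SE, adjusted p = 0.00931), and the libraries of 30 min and of 24 h both lay below the control. EIF5A2, the rarer paralog of EIF5A, was at 1.75, 1.30 and 1.45 FPKM in the control, 1.16, 1.26 and 0.790 FPKM after 30 min and 1.69, 1.76 and 1.60 FPKM after 24 h, all 3 libraries at 30 min below the control, but its adjusted p was 0.176. In 2 members all libraries at 30 min lay below the control (8.91% of all genes) and in 6 above it (4.89%).

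Between 24 h and 30 min, of the 60 members, 18 (30%) were called lower (11.5% of all 11981 genes tested) and 0 higher (15.4%), with a median log2 fold change of -0.38. The 15 members called against the control were among them, joined by EIF3E, EIF3G and EIF4G1. By the adjusted p alone 45 were lower (32.6% of all genes) and 4 higher (32.5%).

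eIF2B, the exchange factor that reloads eIF2 with GTP, held the member with the most negative fold change at 24 h. EIF2B3 (ENSG00000070785, chromosome 1, 44850522 to 44986722), the gamma subunit that pairs with epsilon in the catalytic arm, was at 19.3, 18.7 and 18.1 FPKM in the control, 17.8, 19.6 and 17.7 FPKM after 30 min and 7.52, 7.68 and 8.44 FPKM after 24 h. The libraries of 30 min mixed with the control and those of 24 h stood well below both. Its log2 fold change at 24 h was -1.30 ± 0.08 (SE, adjusted p = 6.72e-12), or 2.45-fold lower. EIF2B2 (ENSG00000119718, chromosome 14, 75002921 to 75012366), the beta subunit of the regulatory core, was at 9.95, 9.54 and 10.9 FPKM in the control, 11.6, 8.95 and 11.02 FPKM after 30 min and 6.80, 6.46 and 6.70 FPKM after 24 h, with a log2 fold change at 24 h of -0.65 ± 0.10 (SE, adjusted p = 7.71e-06) and no overlap between 24 h and the other groups; it was not called with limma on log2(FPKM + 1) (-0.54). The other 3 subunits were not called. EIF2B1, the alpha subunit, was at 22.3, 22.5 and 20.8 FPKM in the control and 22.3, 21.8 and 22.6 FPKM after 24 h, with -0.03 ± 0.06 (SE, adjusted p = 0.739) and overlapping groups. EIF2B5, the catalytic epsilon subunit, had a log2 fold change of -0.36 ± 0.06 (SE, adjusted p = 8.42e-06) with its 3 libraries at 24 h (16.6 to 16.7 FPKM) below the control (20.7 to 20.8 FPKM), and EIF2B4, the delta subunit, had -0.18 ± 0.07 (SE, adjusted p = 0.0364) with overlap. As a description, the FPKM of EIF2B3 stood at 0.857 ± 0.0222 times that of EIF2B1 in the control, 0.794 ± 0.0486 times after 30 min and 0.355 ± 0.0184 times after 24 h (SD, n = 3).

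eIF2 itself, the carrier of the initiator tRNA, held 1 called gene of 5 (11.2% of all genes were called lower), with EIF2A and EIF2D counted in. EIF2S1 (ENSG00000134001, chromosome 14, 67360328 to 67386516), the alpha subunit on which the stress kinases act, was at 40.3, 41.1 and 40.3 FPKM in the control, 40.6, 43.7 and 35.7 FPKM after 30 min and 27.1, 27.97 and 28.3 FPKM after 24 h. All libraries at 24 h lay below the other 6, and its log2 fold change of -0.60 ± 0.06 (SE, adjusted p = 6.90e-08) stood just past the 1.5-fold limit. It missed that limit without 24 h replicate 1 (-0.57), with library totals alone (-0.55), with a filter of 5 FPKM (-0.54) and with limma on log2(FPKM + 0.1) (-0.55) and log2(FPKM + 1) (-0.53). EIF2S3, the gamma subunit that binds GTP and the tRNA, was at 134, 124 and 135 FPKM in the control, 126, 140.3 and 124 FPKM after 30 min and 122, 119.8 and 117 FPKM after 24 h. This gave a log2 fold change at 24 h of -0.18 ± 0.05 (SE, adjusted p = 0.00671). EIF2S2, the beta subunit, had -0.23 ± 0.06 (SE, adjusted p = 0.00326). For both, the 24 h libraries lay below the control by a small margin. EIF2A, an initiator tRNA binder outside the eIF2 complex, had -0.43 ± 0.07 (SE, adjusted p = 1.03e-05). EIF2D, which acts in unconventional initiation and recycling, had 0.07 ± 0.07 (SE, adjusted p = 0.366). EIF2S3B, a copy of EIF2S3 on chromosome 12, was at 3.93, 2.73 and 3.72 FPKM in the control, 3.91, 3.78 and 3.58 FPKM after 30 min and 3.78, 3.59 and 3.04 FPKM after 24 h. Against the control this was a log2 fold change of -0.04 ± 0.14 (SE, adjusted p = 0.792), and the groups overlapped.

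eIF3, the large scaffold that holds the small subunit, the other factors and the mRNA together, held the most called genes. Of its 14 members, 5 were called lower (11.2% of all genes) and 13 were lower by the adjusted p alone (31.8% of all genes). The median log2 fold change of the 14 at 24 h was -0.53. EIF3B (ENSG00000106263, chromosome 7, 2354086 to 2380745), the subunit that organises the b, g and i module, was at 72.04, 77.7 and 73.9 FPKM in the control, 74.97, 72.7 and 77.2 FPKM after 30 min and 41.6, 41.5 and 42.3 FPKM after 24 h. Its 24 h libraries stood far below the others, with a log2 fold change of -0.88 ± 0.05 (SE, adjusted p = 9.23e-12). EIF3I (ENSG00000084623, chromosome 1, 32221077 to 32245397), EIF3B's partner, was at 176, 182 and 179 FPKM in the control, 190.5, 174 and 195 FPKM after 30 min and 115, 120.4 and 115 FPKM after 24 h. The 24 h change was, in log2, -0.67 ± 0.06 (SE, adjusted p = 2.25e-09). EIF3J (ENSG00000104131, chromosome 15, 44537125 to 44563029), a loosely bound subunit, was at 52.0, 46.9 and 50.8 FPKM in the control, 51.3, 52.3 and 42.02 FPKM after 30 min and 28.5, 30.6 and 26.4 FPKM after 24 h. At 24 h its log2 fold change was -0.86 ± 0.08 (SE, adjusted p = 3.72e-09). In EIF3I and EIF3J as in EIF3B, the 24 h libraries lay below every other library. EIF3M (ENSG00000149100, chromosome 11, 32583798 to 32606264), a core subunit whose start is among those with a pyrimidine run, was at 32.6, 33.6 and 31.2 FPKM in the control, 33.4, 35.1 and 30.3 FPKM after 30 min and 19.4, 20.6 and 19.1 FPKM after 24 h. The log2 fold change at 24 h came to -0.77 ± 0.06 (SE, adjusted p = 8.57e-10), again with no overlap. EIF3C (ENSG00000184110, chromosome 16, 28688558 to 28735727), another core subunit, was at 7.91, 5.01 and 7.06 FPKM in the control, 6.51, 6.96 and 4.85 FPKM after 30 min and 3.08, 3.05 and 3.59 FPKM after 24 h. The control libraries were spread from 5.01 to 7.91 FPKM and still lay above the 24 h libraries, with a log2 fold change of -1.08 ± 0.14 (SE, adjusted p = 6.34e-07). Its copy EIF3CL was at 1.56, 1.35 and 1.29 FPKM in the control, 1.19, 1.46 and 1.20 FPKM after 30 min and 1.30, 0.750 and 1.01 FPKM after 24 h. This gave a log2 fold change at 24 h of -0.51 ± 0.20 (SE, adjusted p = 0.0282), and the groups overlapped; reads of the pair cannot be fully told apart.

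Of the other 9 members of eIF3, EIF3E and EIF3G came nearest to a call. EIF3E, a core subunit, was at 114, 105 and 105 FPKM in the control, 116, 117 and 95.5 FPKM after 30 min and 74.4, 76.7 and 74.3 FPKM after 24 h. In log2 terms it differed by -0.57 ± 0.07 (SE, adjusted p = 1.81e-07) against the control and -0.63 ± 0.07 (SE, adjusted p = 4.40e-08) against 30 min. EIF3G, an RNA-binding subunit of the b, g and i module, was at 62.05, 72.4 and 60.7 FPKM in the control, 66.3, 65.5 and 71.03 FPKM after 30 min and 45.4, 44.4 and 47.9 FPKM after 24 h. The 24 h change was, in log2, -0.55 ± 0.07 (SE, adjusted p = 5.51e-07) against the control and -0.64 ± 0.07 (SE, adjusted p = 6.42e-08) against 30 min. In both genes the 24 h libraries were the 3 lowest, and only the comparison with 30 min passed the fold change of 1.5. Against the control EIF3E reached -0.60 without control replicate 2 or without control replicate 3, and EIF3G -0.60 without control replicate 1, -0.61 without control replicate 3 and -0.60 without 24 h replicate 3, all past the limit. Against 30 min EIF3E came to -0.58, short of it, without 30 min replicate 1. EIF3G was called there with each library left out in turn (-0.67 to -0.61), but both genes lost that call with either limma fit, library totals alone or a filter of 5 FPKM (-0.56 to -0.53). EIF3K, EIF3D, EIF3A, EIF3H and EIF3F had log2 fold changes from -0.45 (EIF3K) to -0.18 (EIF3F), each with all 24 h libraries below the control. The exception was EIF3L, also a core subunit, at 76.6, 78.1 and 81.3 FPKM in the control, 86.8, 80.6 and 83.5 FPKM after 30 min and 86.95, 87.1 and 90.3 FPKM after 24 h: its log2 fold change was 0.12 ± 0.05 (SE, adjusted p = 0.0623), with the 24 h libraries above the control. For EIF3L, 51.8% of the exon bases are overlapped by other genes. Put side by side after their values were seen, the b, g, i and j genes had a median of -0.76 with 3 of 4 called. The 9 core and d genes, without EIF3CL, had a median of -0.36 with 2 of 9 called, where 11.2% of all genes were called lower. The difference was not tested. The FPKM of EIF3B was 0.947 ± 0.0434 times that of EIF3L in the control and 0.474 ± 0.00551 times after 24 h (SD, n = 3).

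**Figure D2:**
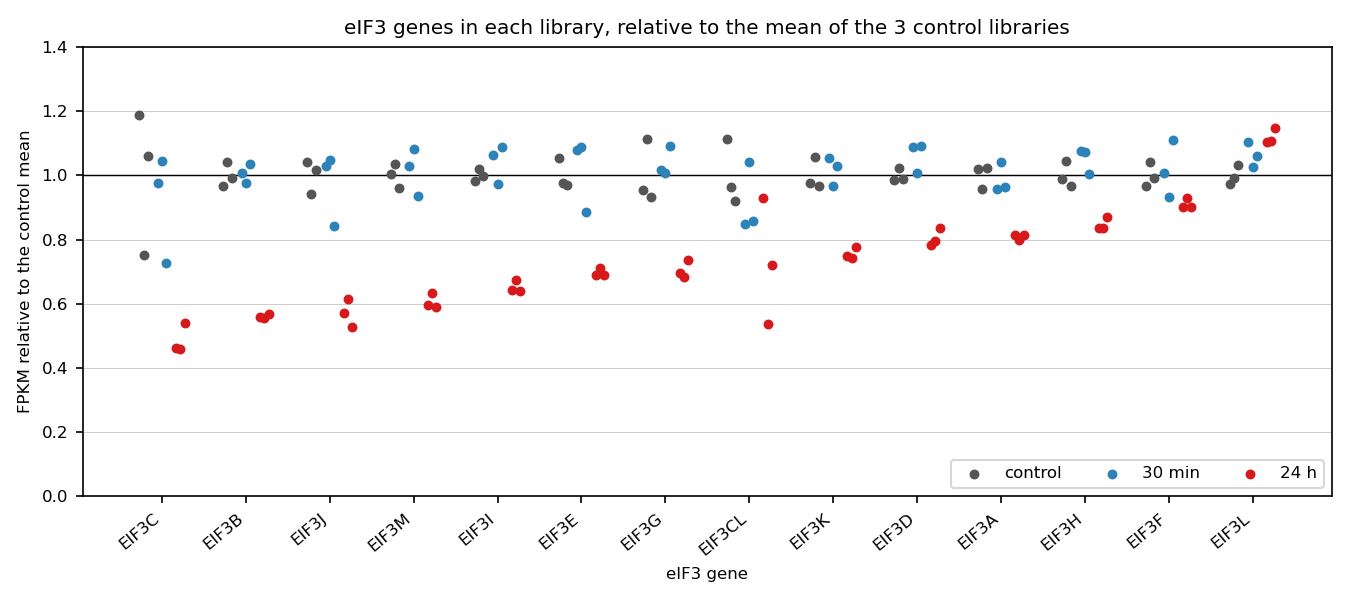
FPKM of the 14 eIF3 genes in each library, divided by the mean of the 3 control libraries; genes are ordered by their log2 fold change at 24 h. The 24 h libraries lie below the control in 12 genes, overlap it in EIF3CL and lie above it in EIF3L. Over all genes tested, they lie below it in 31% and above it in 38.7%.

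eIF4F and its helpers, which recognise and unwind the capped mRNA, held 1 called member of 11 (9.09%, against 11.2% of all genes called lower). EIF4E (ENSG00000151247, chromosome 4, 98879276 to 98929133), the cap-binding protein, was at 3.85, 3.67 and 3.53 FPKM in the control, 3.69, 3.90 and 3.02 FPKM after 30 min and 2.41, 2.31 and 2.18 FPKM after 24 h. All libraries at 24 h lay below the other 6, with a log2 fold change of -0.73 ± 0.09 (SE, adjusted p = 2.67e-07). With limma on log2(FPKM + 1) it came to -0.51 and was not called. The level of EIF4E in FPKM is low for its length in the authors' values, which imply 14075 bases where the annotation used here has 4971, and counts of its pseudogenes came to 31.0% of its own. The log2 fold change from counts does not depend on that length, while the one on log2(FPKM + 1) does. EIF4G1 (ENSG00000114867, chromosome 3, 184314495 to 184335358), the main scaffold, was at 104, 102 and 106 FPKM in the control, 97.5, 102 and 114 FPKM after 30 min and 73.05, 72.4 and 73.2 FPKM after 24 h. At 24 h its log2 fold change was -0.56 ± 0.06 (SE, adjusted p = 1.91e-08) against the control and -0.60 ± 0.05 (SE, adjusted p = 6.24e-09) against 30 min, called in the latter only and with the 24 h libraries lowest in both. Without 30 min replicate 3 EIF4G1 came to -0.53 against 30 min and was not called. It also lost that call with library totals alone (-0.52) and with a filter of 5 FPKM (-0.52). The same held with limma on log2(FPKM + 0.1) (-0.51) and log2(FPKM + 1) (-0.51). Against the control it gained a call without a filter on FPKM (-0.62). EIF4H, which stimulates the helicase, was at 223, 221 and 218 FPKM in the control, 229, 223 and 225 FPKM after 30 min and 163, 168 and 171 FPKM after 24 h. The log2 fold change at 24 h came to -0.45 ± 0.05 (SE, adjusted p = 8.57e-08). For EIF4H too the 24 h libraries were the 3 lowest, and the fold change stayed under 1.5. EIF4A3, a helicase of the exon junction complex that shares the name, had -0.35 ± 0.07 (SE, adjusted p = 8.46e-05). EIF4G3, EIF4G2 and EIF4B, a pair of eIF4G paralogs and another helper of the helicase, had log2 fold changes of -0.23 ± 0.06, -0.17 ± 0.05 and -0.12 ± 0.05. The remaining members did not pass the adjusted p at 24 h: EIF4E2 had -0.06 ± 0.07, EIF4E3 had -0.03 ± 0.08, EIF4A1 had 0.05 ± 0.08 and EIF4A2 had -0.06 ± 0.05, all on the log2 scale.

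Of the 4 genes for proteins that bind eIF4E, none was called, where at 24 h 11.2% of all genes were called lower and 15.1% higher. EIF4EBP1, a 4E-BP that releases eIF4E when mTORC1 phosphorylates it, was at 187, 221 and 193 FPKM in the control, 205, 189 and 205 FPKM after 30 min and 157, 168 and 169.8 FPKM after 24 h. This gave a log2 fold change at 24 h of -0.33 ± 0.07 (SE, adjusted p = 2.73e-04), the 24 h libraries lowest but under 1.5-fold. EIF4EBP2, its paralog, was at 28.4, 26.1 and 28.01 FPKM in the control, 26.1, 28.6 and 26.5 FPKM after 30 min and 39.9, 37.02 and 36.6 FPKM after 24 h. The 24 h libraries lay above the other 6, and its log2 fold change of 0.41 ± 0.06 (SE, adjusted p = 1.78e-06) was the highest of the 60 members. EIF4EBP3 and the eIF4E transporter EIF4ENIF1 had 0.01 ± 0.18 and -0.02 ± 0.09 and did not pass the test; 73.2% of the exon bases of EIF4EBP3 are overlapped by other genes. The summed FPKM of the 3 EIF4EBP genes was 63.9 ± 5.88 times that of EIF4E in the control, 66.9 ± 10.9 times after 30 min and 91.7 ± 6.72 times after 24 h (SD, n = 3). The ratio at 24 h was 1.43 times that of the control, with all 3 libraries above it (two-sided exact permutation p = 0.1, the smallest that 3 against 3 allows), and the ratio at 30 min overlapped the control (exact permutation p = 0.8). With EIF4EBP1 alone the ratio at 24 h was 1.32 times that of the control. The size of the ratio itself depends on the length behind the FPKM of EIF4E.

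The factors of the last step of initiation were led by EIF5B. EIF5B (ENSG00000158417, chromosome 2, 99337371 to 99401326), the GTPase that joins the large subunit, was at 53.9, 53.3 and 53.6 FPKM in the control, 55.1, 58.6 and 44.3 FPKM after 30 min and 27.7, 28.1 and 27.5 FPKM after 24 h. The control libraries differed by less than 1 FPKM, and all 3 libraries at 24 h lay far below them, with a log2 fold change of -0.997 ± 0.07 (SE, adjusted p = 1.98e-10), 2.00-fold lower. EIF6, which keeps the large subunit from joining early and takes part in its assembly, was at 128, 137 and 133 FPKM in the control, 143, 126 and 145 FPKM after 30 min and 98.2, 102 and 104 FPKM after 24 h. Against the control this was a log2 fold change of -0.43 ± 0.06 (SE, adjusted p = 3.71e-06), lowest at 24 h and not called; against 30 min it was called only without 30 min replicate 2 (-0.60). EIF5, described above, had -0.19 ± 0.05 (SE, adjusted p = 0.00386) at 24 h. The FPKM of EIF5B was 1.33 ± 0.0487 times that of EIF5 in the control and 0.762 ± 0.0218 times after 24 h (SD, n = 3).

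Of the 3 eIF5A genes, 2 were called lower (11.2% of all genes). EIF5A (ENSG00000132507, chromosome 17, 7306999 to 7312463), which carries the modified lysine hypusine and acts in elongation and termination, was at 279, 311 and 281 FPKM in the control, 306, 280.4 and 298 FPKM after 30 min and 152, 156 and 164 FPKM after 24 h. Its 24 h libraries lay below the other 6 by more than 100 FPKM, with a log2 fold change of -0.93 ± 0.06 (SE, adjusted p = 2.77e-11). EIF5AL1, a near-identical copy on chromosome 10, was at 3.17, 3.09 and 3.57 FPKM in the control, 3.49, 2.78 and 4.25 FPKM after 30 min and 1.37, 1.81 and 1.71 FPKM after 24 h. The 24 h change was, in log2, -1.05 ± 0.15 (SE, adjusted p = 3.15e-06), with no overlap at 24 h. Its level was between 0.904% and 1.43% of that of EIF5A in the 9 libraries, and reads of the pair cannot be fully told apart. EIF5A2 had 0.12 ± 0.15 (SE, adjusted p = 0.511) against the control at 24 h and 0.57 ± 0.15 (SE, adjusted p = 0.00278) against 30 min, where all 3 libraries at 24 h lay above those at 30 min and the fold change stayed under 1.5.

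**Figure D3:**
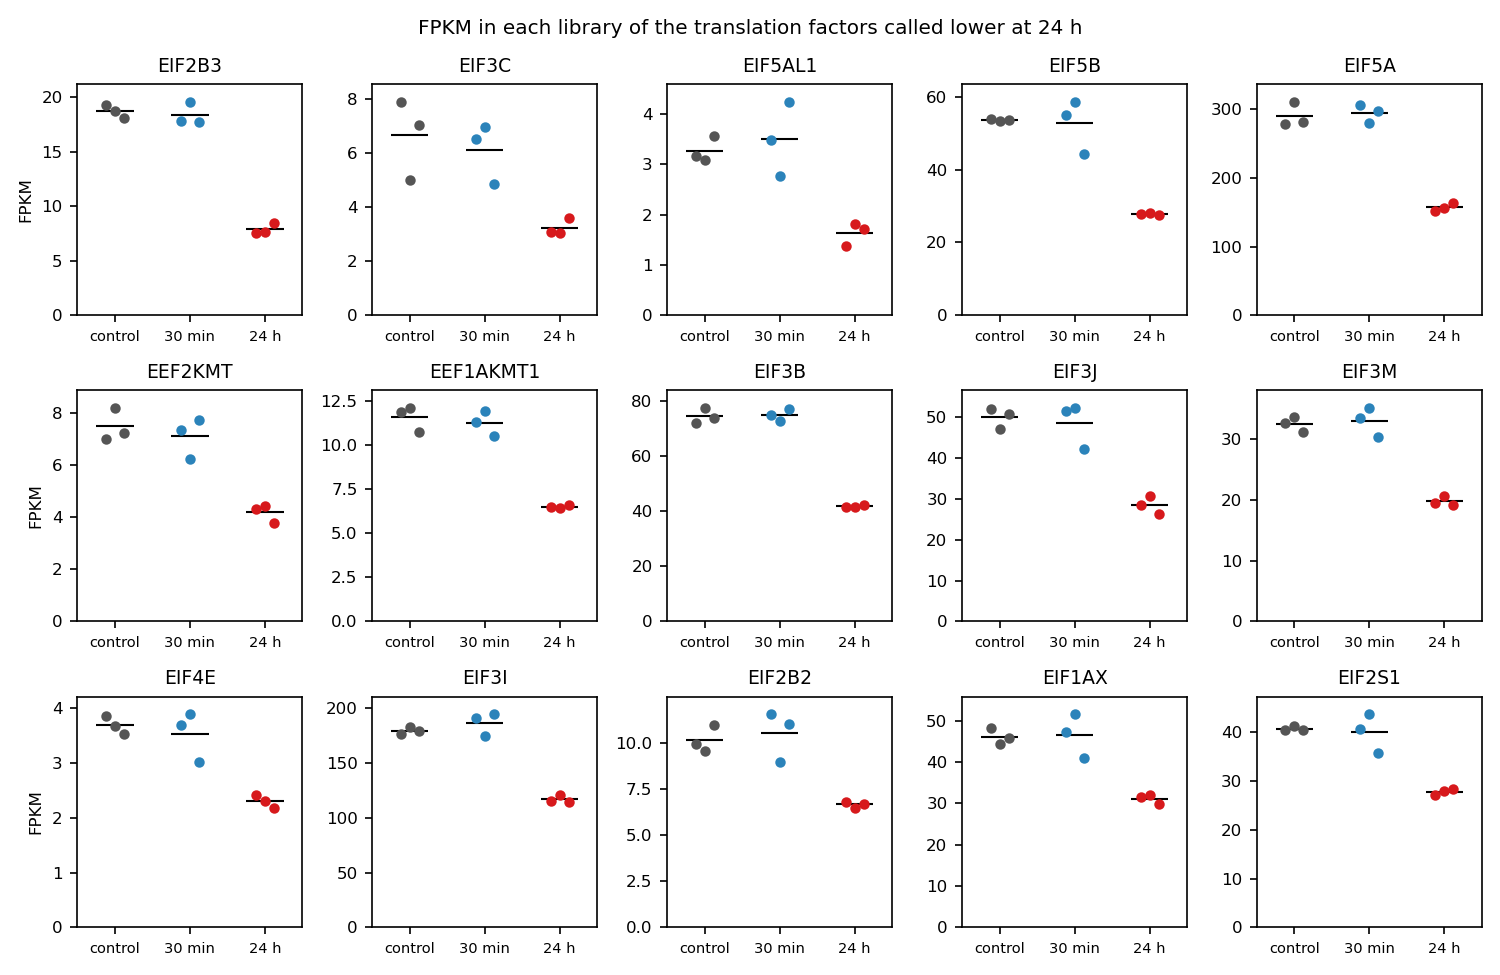
FPKM of the 15 members called lower at 24 h in each of the 9 libraries, with the mean of each group as a line; axes start at 0. In all 15 genes the 24 h libraries lie below every control and every 30 min library, and the 30 min libraries overlap the control.

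None of the 5 members named for eEF1 and eEF2 was called, where at 24 h 11.2% of all genes were called lower and 15.1% higher. EIF5A, which also acts in elongation, was called lower (described above). EEF1A1, the most used tRNA carrier, was at 775, 808 and 778 FPKM in the control, 854, 804 and 805 FPKM after 30 min and 848, 855 and 916 FPKM after 24 h. It stood apart from most members in that its 24 h libraries lay above the control in FPKM, while its log2 fold change of 0.10 ± 0.05 (SE, adjusted p = 0.0844) did not pass the test. EEF2, the translocase, was at 898, 934 and 917 FPKM in the control, 955, 907 and 1065 FPKM after 30 min and 796, 804 and 835 FPKM after 24 h. At 24 h its log2 fold change was -0.22 ± 0.06 (SE, adjusted p = 0.00145), below the control at 24 h by less than 1.5-fold. EEF1B2, an exchange factor for eEF1A, had -0.20 ± 0.05 (SE, adjusted p = 0.00259). EEF1D, another exchange subunit, had -0.11 ± 0.07 (SE, adjusted p = 0.171). EEF1E1, a protein of the multi-synthetase complex, had -0.39 ± 0.10 (SE, adjusted p = 0.00144). As a description, the FPKM of EIF5A was 0.317 ± 0.0143 times that of EEF2 in the control and 0.193 ± 0.00273 times after 24 h (SD, n = 3). EEF1G, the remaining eEF1 subunit, lay under the limit of 1 FPKM and was not a member; 99.7% of its exon bases are overlapped by another annotated gene.

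Of the enzymes that modify elongation factors, 2 of 5 were called lower (11.2% of all genes). EEF1AKMT1 (ENSG00000150456, chromosome 13, 20728731 to 20773961), a lysine methyltransferase of eEF1A, was at 11.9, 12.2 and 10.8 FPKM in the control, 11.3, 11.96 and 10.5 FPKM after 30 min and 6.51, 6.45 and 6.60 FPKM after 24 h. The log2 fold change at 24 h came to -0.88 ± 0.11 (SE, adjusted p = 2.83e-07). EEF2KMT (ENSG00000118894, chromosome 16, 5084284 to 5097795), the lysine methyltransferase of eEF2, was at 6.99, 8.20 and 7.24 FPKM in the control, 7.36, 6.21 and 7.71 FPKM after 30 min and 4.33, 4.43 and 3.79 FPKM after 24 h. This gave a log2 fold change at 24 h of -0.89 ± 0.11 (SE, adjusted p = 3.35e-07). In both, the libraries at 24 h did not overlap the others, and for EEF2KMT 31.4% of the exon bases are overlapped by ALG1 on the opposite strand. EEF1AKMT3, a further methyltransferase of eEF1A, was among the 3 members with a higher level by the adjusted p alone, at 7.01 ± 0.511 FPKM in the control and 9.18 ± 0.496 FPKM after 24 h (SD, n = 3), with 0.34 ± 0.09 (SE, adjusted p = 0.00158). EEF2K, the kinase that halts eEF2, was at 10.2, 9.76 and 11.1 FPKM in the control, 8.79, 10.3 and 11.1 FPKM after 30 min and 9.17, 9.48 and 8.79 FPKM after 24 h. Against the control this was a log2 fold change of -0.22 ± 0.08 (SE, adjusted p = 0.0163), and EEF1AKMT2 had -0.25 ± 0.09 (SE, adjusted p = 0.0146).

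Of the factors of start codon choice, 1 of 4 was called lower (11.2% of all genes). EIF1AX (ENSG00000173674, chromosome X, 20124525 to 20141838), the X-linked gene for eIF1A, was at 48.1, 44.4 and 45.7 FPKM in the control, 47.2, 51.7 and 40.9 FPKM after 30 min and 31.6, 31.96 and 29.8 FPKM after 24 h. The 24 h libraries lay below the other 6, with a log2 fold change of -0.61 ± 0.07 (SE, adjusted p = 1.17e-07). This was close to the fold limit, which EIF1AX missed with library totals alone (-0.56), with a filter of 5 FPKM (-0.56) and with limma on log2(FPKM + 0.1) (-0.56) and log2(FPKM + 1) (-0.55). EIF1, its partner in scanning, was at 64.6, 68.9 and 66.9 FPKM in the control, 74.4, 68.9 and 69.05 FPKM after 30 min and 85.7, 87.9 and 86.04 FPKM after 24 h. Here the 24 h libraries lay above all others, and the log2 fold change of 0.33 ± 0.06 (SE, adjusted p = 2.99e-05) stayed under 1.5-fold. The FPKM of EIF1AX was 0.691 ± 0.0504 times that of EIF1 in the control and 0.360 ± 0.0116 times after 24 h (SD, n = 3). EIF1B, a paralog of EIF1, had -0.18 ± 0.08 (SE, adjusted p = 0.0670), and EIF1AD, named for an eIF1A-like domain, had -0.19 ± 0.08 (SE, adjusted p = 0.0470).

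Set beside the transcript starts, of the 12 members with a run of at least 5 pyrimidines at the annotated start, 1 (EIF3M) was called lower at 24 h and the median log2 fold change was -0.18, from -0.77 to 0.10. Of the 36 with a shorter run or none, 12 were called lower, with a median of -0.30. Over all genes tested, 11.2% were called lower. The run length of 5 was set after the values were seen, and the difference was not tested. In a list of known TOP mRNAs among the members (EEF1A1, EEF1B2, EEF1D, EEF2, EIF3E, EIF3F, EIF3H and EIF4B), 0 of 8 were called lower against the control (11.2% of all genes), with a median of -0.19, and 15 of the other 52, with a median of -0.35. By the adjusted p alone, 6 of the 8 (75%) and 37 of the 52 (71.2%) were lower (31.8% of all genes). Against 30 min 1 of the 8 (EIF3E) was called lower (11.5% of all genes). EEF1B2 is on that list although its RefSeq start has no such run. For the E-box, 2 of the 13 called members with a promoter sequence held it (15.4%) and 10 of the 35 others did (28.6%); the median log2 fold change was -0.29 with the E-box and -0.23 without.

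**Figure D4:**
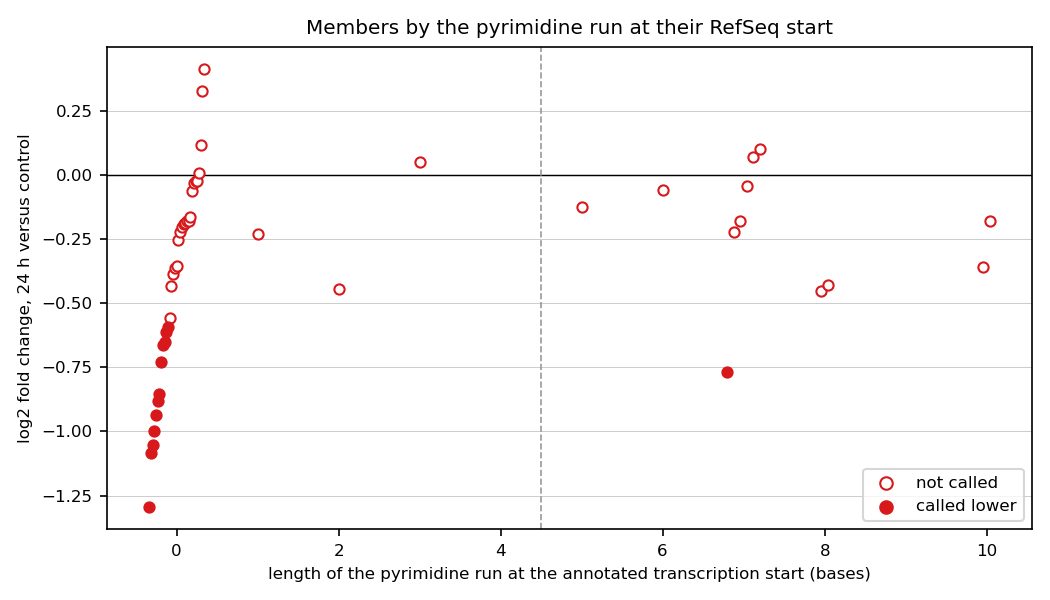
log2 fold change at 24 h against the control (vertical) by the length in bases of the pyrimidine run at the RefSeq start (horizontal) for the 48 members with a promoter sequence; points of equal length are spread sideways by rank, and the dashed line separates runs of at least 5. Right of the line 1 of 12 points is filled (called lower), left of it 12 of 36, where 11.2% of all genes were called lower.

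As a share of all counts, the 60 members made up 2.19% ± 0.0211 in the control, 2.26% ± 0.0254 after 30 min and 1.93% ± 0.0354 after 24 h (SD, n = 3). All libraries at 24 h lay below the control (two-sided exact permutation p = 0.1, the smallest that 3 against 3 allows), a ratio of 0.881, and all libraries at 30 min lay above it (exact permutation p = 0.1), a ratio of 1.03. EEF1A1 and EEF2 carry much of this sum. Without them the share was 1.36% ± 0.00495 in the control, 1.38% ± 0.0182 after 30 min and 1.09% ± 0.00497 after 24 h, a ratio at 24 h of 0.801 with no overlap (exact permutation p = 0.1).

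**Figure D5:**
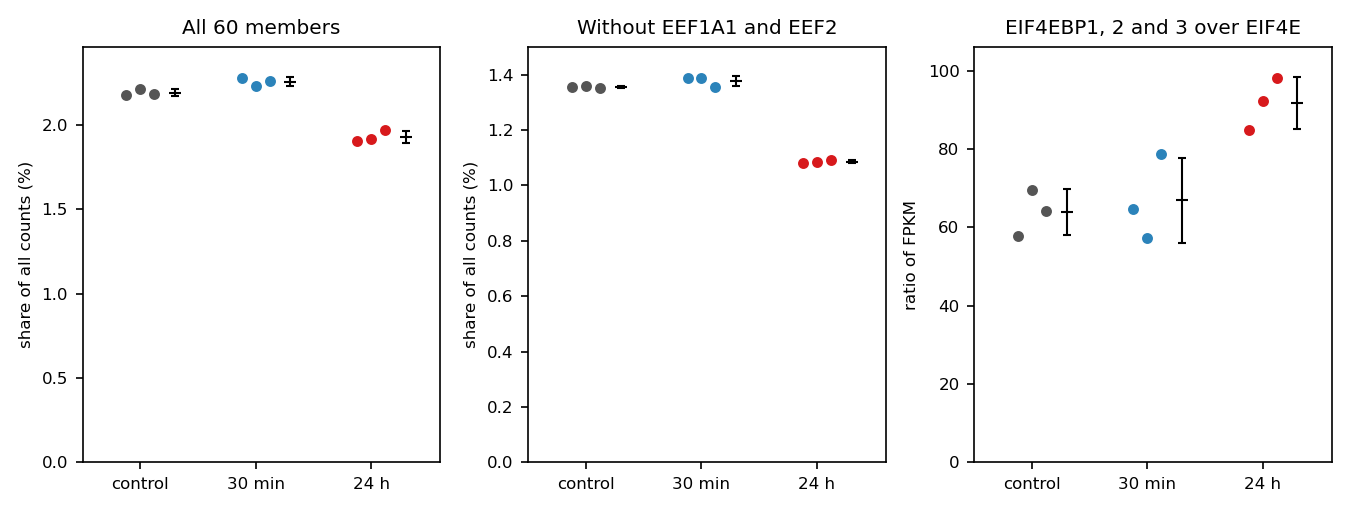
Share of all counts taken by the 60 members (left), the same without EEF1A1 and EEF2 (middle), and the summed FPKM of EIF4EBP1, EIF4EBP2 and EIF4EBP3 over that of EIF4E (right), for each library with the mean and SD of each group; axes start at 0. The 24 h libraries are the lowest in both shares and the highest in the ratio.

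Other genes of the pathway were read from lists of 56 genes, 52 of which were tested. At 24 h, 10 of the 52 were called lower (11.2% of all genes), 3 were called higher (15.1% of all genes), and the median log2 fold change was -0.15; at 30 min none was called. Termination and recycling held 3 lower of 7 tested: PELO, a rescue factor of stalled ribosomes (-0.79 ± 0.08, adjusted p = 5.69e-08), GSPT1, the release factor eRF3 (-0.76 ± 0.06, adjusted p = 2.41e-10), and ABCE1, which splits ribosomes (-0.71 ± 0.07, adjusted p = 9.46e-09). Of the enzymes that finish eIF5A and eEF2, DOHH, which completes hypusine, was at 26.6 ± 3.57 FPKM in the control and 16.4 ± 0.887 FPKM after 24 h (SD, n = 3), with -0.74 ± 0.09 (adjusted p = 3.99e-07). DPH2, of the diphthamide pathway of eEF2, was at 34.98 ± 0.708 and 16.9 ± 1.14 FPKM, with -1.10 ± 0.08 (adjusted p = 1.15e-10). Of 9 mitochondrial translation factors, 4 were called lower (TUFM, TSFM, GFM1 and MRRF, from -0.99 to -0.70). Of the 9 eIF2alpha kinase and phosphatase genes 1 was called higher, and of 14 genes of mTORC1 and eIF4 signalling 2 were (15.1% of all genes). EIF2AK3, the eIF2alpha kinase PERK, was at 2.61 ± 0.136 FPKM in the control and 4.65 ± 0.254 FPKM after 24 h, with 0.78 ± 0.09 (adjusted p = 1.80e-07). TSC1, a brake on mTORC1, had 0.69 ± 0.08 (adjusted p = 1.57e-07) and PDCD4, an inhibitor of eIF4A, had 0.63 ± 0.07 (adjusted p = 2.57e-07). DEPTOR, another inhibitor of mTOR, went the other way, with -1.17 ± 0.18 (adjusted p = 7.19e-06), and MTOR itself had -0.06 ± 0.08 (adjusted p = 0.495).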

How the data were processed

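RNA of control and matrine-treated U937 cells was sequenced as paired-end reads, 3 libraries per group and 9 in all; libraries of HL-60 and K562 cells are not analysed here. The authors deposited 1 table of unnormalized HTSeq counts per gene and of FPKM per gene, rounded, under Ensembl identifiers, and each of its columns was used. The submitters' processing notes name cutadapt 1.9.1, HISAT2 2.0.1, HTSeq 0.6.1 and the build GRCh37, while the paper names hg38. The table holds no coordinates, so those printed are of GENCODE release 44 (GRCh38), in which 51996 of 57905 identifiers had a symbol. Annotation release, strand setting and the treatment of reads with several matches are not given in the sources used here. The labels name an mRNA kit, and the paper names poly(A) isolation or rRNA removal.

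Counts were normalized with TMM and tested with edgeR 4.0.16 (R 4.3.3; quasi-likelihood, Benjamini-Hochberg) in a single fit of the 9 libraries, for genes with a mean above 1 FPKM over the 6 libraries of a comparison. Genes were called at an adjusted p below 0.05 with a fold change of 1.5 or more. All 60 members passed the filter in each comparison. The SE was taken as the size of the log2 fold change divided by the square root of F. The edgeR change can differ slightly from the ratio of the FPKM values. Tested on simulated data with 200 of 12035 genes changed for 24 h against the control, edgeR recovered 188 with 9 calls elsewhere. Those calls used the adjusted p alone, without the fold limit. The simulation gave every gene the same spread and changed far fewer genes than passed the adjusted p in the data. It therefore does not give the recovery of the calls reported here. Libraries of a group differed beyond sampling noise, and each was counted as a replicate. That spread does not show that the libraries came from separate cultures.

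The members, the complexes, the TOP list and the lists of related genes were chosen with earlier results of these data known. Library values were given for members called in any comparison and for the most abundant of each complex; other genes were named as members or after their values were seen. Shares and ratios were compared with exact permutation tests, two-sided. Alternatives used limma 3.58.1, DESeq2 1.42.0, other size factors, filters and fold limits, a replicate block and each library left out. Some markers of other cell types are not reported here.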

Additional observations from a re-analysis of the deposited data

Results flagged for a closer look

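For 18 members the effect of matrine at 24 h differed from that at 30 min by the test of the difference itself, which, with shared control libraries, is the contrast of 24 h and 30 min (edgeR quasi-likelihood test, Benjamini-Hochberg, 3 libraries each, adjusted p below 0.05 and fold change of at least 1.5). The difference of the log2 fold changes, 24 h less 30 min, was -1.30 in EIF2B3, -1.18 in EIF5AL1, -1.003 in EIF5B, -0.99 in EIF3C and -0.99 in EIF5A. It was -0.92 in EIF3B, -0.87 in EEF1AKMT1, -0.85 in EIF3J, -0.84 in EEF2KMT and -0.82 in EIF3M. Smaller differences were -0.76 in EIF3I, -0.74 in EIF2B2, -0.70 in EIF4E and -0.66 in EIF1AX. The last 4 were -0.64 in EIF3G, -0.63 in EIF3E, -0.61 in EIF2S1 and -0.60 in EIF4G1. The 18 are 30% of the members, where 11.5% of all genes tested were called lower in this contrast. In all 18 the 3 libraries at 24 h lay below the 3 libraries at 30 min in FPKM (28.6% of all genes). Since the 18 were chosen by the same contrast of these libraries, that separation is no further support.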

How the results depend on the processing

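Alternatives were followed for 28 members, those called in any comparison or most abundant in their complex. Of their 1501 values under an alternative, 1456 kept their side of the threshold, 36 lost and 9 gained a call. Of the values called in the main fit, 0 reversed. Values not called could change sign: EIF2S3B at 24 h against the control ran from -0.20 to 0.054 with each library left out. Calls were lost in EIF1AX, EIF2S1, EIF2B2, EIF4E, EIF3E, EIF3G and EIF4G1, most often with limma, library totals alone or a filter of 5 FPKM. No member was called at 30 min under any alternative with a fold limit; with none, 1 was lower and 2 were higher. Of the 15 members called lower at 24 h against the control, 4 lost the call with limma on log2(FPKM + 1). With limma on log2(FPKM + 0.1), library totals alone or a filter of 5 FPKM, 2 lost it each time (EIF1AX and EIF2S1). That filter also left EIF4E, EIF5AL1 and EIF3C untested. Against the control at 24 h, the members called lower were 43 (and 3 higher) without a fold limit, 3 at a fold change of at least 2, and 7 without the members that have a copy or readthrough gene, by construction of fewer genes. Against 30 min they were 45 (and 4 higher), 3 and 9 in the same order, 11 with limma on log2(FPKM + 1), and 11 with a filter of 5 FPKM; 1 (EIF5A2) was higher with limma on log2(FPKM + 0.1) and with library totals alone. Related genes called at 24 h were 22 lower and 9 higher without a fold limit and 2 and 0 at a fold change of 2 against the control, 27 and 9 and then 3 and 0 against 30 min, where 1 was higher without a filter. The median log2 fold change of the members under limma with pseudocounts 0.1 and 1, library totals, no filter and a filter of 5 FPKM was -0.22, -0.20, -0.22, -0.34 and -0.23 against the control and -0.30, -0.28, -0.30, -0.44 and -0.31 against 30 min; for related genes it was -0.10, -0.093, -0.11, -0.22 and -0.098 and -0.13, -0.12, -0.13, -0.28 and -0.15. Without copies the members' median was -0.29 at 24 h and 0.011 at 30 min, where it was 0.045 with DESeq2 and with RLE size factors, 0.016 with both limma fits, 0.020 with library totals and 0.042 without a filter. Without EEF1A1 and EEF2, the ratio of the members' share was 0.801 against the control and 0.788 against 30 min. Over all genes, library totals alone took the lower share of calls between 24 h and 30 min from 42.8% to 32.6%.

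With each library left out in turn, members called lower were 15 to 17 against the control and 17 to 18 against 30 min, members higher 0 to 1 against 30 min (EIF5A2, without 30 min replicate 1, without 30 min replicate 2 or without 24 h replicate 3), and related genes lower 10 to 14 and 10 to 13 and higher 3 and 2 to 3. The members' median was -0.30 to -0.25 and -0.41 to -0.37 at 24 h and 0.015 to 0.053 at 30 min, and that of related genes -0.18 to -0.13, -0.22 to -0.19 and -0.012 to 0.037. No pairing of libraries by replicate number was seen. Deviations from the group means correlated between -0.143 and 0.087 for same-numbered libraries, and between -0.138 and 0.176 for differently numbered ones. With 3 libraries per group this cannot exclude a pairing. With the replicate block, 15 members were called lower against the control and 18 against 30 min, and no call of a named member changed; the cause of the other shifts was not tested.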

Other observations

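Near-identical copies were read beside their sources. The FPKM of EIF2S3B was between 2.21% and 3.10% of that of EIF2S3 in the 9 libraries. EIF3CL was at 21.6% of EIF3C in the control and 31.6% after 24 h by the means of 3 libraries, and between 18.3% and 42.2% in single libraries. The counts of annotated pseudogenes exceeded 10% of the counts of their source for 4 members. EEF1A1, with 48 pseudogenes in the table, had pseudogene counts of 6.46% of its own. A protein-coding gene that overlaps 99.7% of the exon bases of EEF1G, ENSG00000255508, was between 0.57 and 0.98 FPKM in the 9 libraries, and EEF1G had a mean of 0.324 FPKM. A lncRNA gene that overlaps EIF4A1, ENSG00000264772, was between 0.75 and 1.25 FPKM.

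The ratio of the helicase paralogs, EIF4A2 over EIF4A1 in FPKM, was 6.53 ± 0.623 in the control, 6.23 ± 0.286 after 30 min and 6.04 ± 0.459 after 24 h (SD, n = 3), and overlapped between groups. Its size is uncertain, since 47.4% of the exon bases of EIF4A1 are overlapped by other genes. Counts of the pseudogenes of EIF4A1 came to 18.5% of its own. EIF4EBP2 over EIF4EBP1 was 0.139 ± 0.0181 in the control, 0.136 ± 0.0134 after 30 min and 0.230 ± 0.0213 after 24 h, with the 24 h libraries above the others. EIF1B over EIF1 was 0.341 ± 0.0238 in the control and 0.240 ± 0.0101 after 24 h. These ratios are descriptions and were not tested.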
